A study of Mus musculus with 12 samples.

Results

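miR-155 was followed through a mouse model of plaque formation, in which 1 carotid artery of an animal is exposed to disturbed blood flow and the other is left alone. Its values come from the single quantitative PCR assay named mmu-miR-155, 1 of the 513 miRNAs for which the main run gave values, and it was measured in all 12 samples. The samples were 6 partially ligated left carotid arteries and 6 untreated right carotid arteries as controls, and per the labels each group held 6 biological replicates. All came from female apoE-/- mice aged 6 to 8 weeks, which lack apolipoprotein E throughout the body and therefore carry high blood lipids in both arteries. In the ligated artery the external and internal carotid branches and the occipital artery were closed, so that blood left mainly through the superior thyroid artery. Both arteries were then exposed to the same high-fat diet for 6 weeks, which held 0.15% cholesterol, 21% fat and 19.5% casein. The comparison asks how the artery under altered flow differed from the untreated artery, in whole-vessel RNA that mixes every cell type of the wall.

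miR-155 is processed from a non-coding host transcript, Mir155hg, once known as BIC. The transcript is switched on by inflammatory signals in macrophages and on activation of lymphocytes, and the mature miRNA represses messengers such as Socs1, Inpp5d and Bcl6, which restrain cytokine signalling, phosphoinositide signalling and inflammatory gene expression. In atherosclerosis miR-155 is known mainly from plaque macrophages. The RefSeq record of its hairpin (GRCm38.p6) lies at chr16:84714140-84714204 on the plus strand, inside the span of Mir155hg, chr16:84713023-84715245. The assay name states no arm and was taken as the 5p arm. No separate assay named for the 3p arm was in the main run. The hairpin is shown with the 5p arm in capitals, and the mature arms follow with the seed, bases 2 to 8, in capitals, since the seed sets which messengers are bound.
Mir155 hairpin: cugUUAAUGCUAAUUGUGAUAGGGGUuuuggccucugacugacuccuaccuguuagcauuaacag
miR-155-5p: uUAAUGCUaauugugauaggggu
miR-155-3p: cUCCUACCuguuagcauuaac
The 5p arm of 23 bases spans chr16:84714143-84714165 and the 3p arm of 21 bases spans chr16:84714182-84714202. In a predicted fold of the 65-base hairpin, 20 of the 23 bases of the 5p arm were paired, with a free energy of -27.20 kcal/mol. The seed of miR-155-5p occurred in 1 of 1679 mature mouse miRNA names in the RefSeq table, its own, and the shorter stretch of bases 2 to 7 was also found only there.

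From the lists of leukocyte and innate-activation miRNAs used in the results that follow, the 6 whose change came closest to that of miR-155 are shown for comparison, again with the seed in capitals. None of these 6 shares its seed. The first, miR-21, is raised in many inflamed and growing tissues, both arms of miR-142 and miR-223 are made mainly by blood-derived leukocytes, miR-342 is also enriched in leukocytes, and miR-146a is induced like miR-155 through NF-kB and dampens Toll-like receptor signalling.
miR-21a-5p: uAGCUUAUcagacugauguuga
miR-142a-5p: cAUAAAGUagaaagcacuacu
miR-142a-3p: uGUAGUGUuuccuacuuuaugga
miR-342-3p: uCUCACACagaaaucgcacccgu
miR-223-3p: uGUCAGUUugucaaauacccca
miR-146a-5p: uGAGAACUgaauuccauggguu

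A raw threshold cycle (Ct) counts PCR cycles until a product is seen, so a lower Ct means more RNA, and 1 cycle was read as a doubling. A miRNA was called detected below a Ct of 35. Between 330 and 357 miRNAs were detected per ligated artery and between 317 and 341 per control artery. Both defining groups of wall markers were present in all 12 samples. These were miR-143, miR-145 and miR-133a for smooth muscle and miR-126-3p and miR-126-5p for endothelium. The liver marker miR-122 was at a Ct of 40, the value listed for no amplification, in every sample. Markers of other tissues were detected, with miR-451 of red cells, miR-9 of neurons and miR-206 of skeletal muscle in all 12 samples. The neuronal miR-124 was detected in 6 ligated and 5 control arteries, and the red cell miR-486 in 2 of each group. Whether these came from tissue outside the wall was not tested. Replicates 1 to 3 stood apart from replicates 4 to 6 along the first principal component (43.3% of variance), in both groups, and the main results for miR-155 are therefore also given within these 2 number sets. What the sets are is not stated by the labels. Ligated 5 and 6 were the most alike of the 66 pairs of samples, with levels 0.33 log2 apart on average.

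Before any scaling, miR-155 was reached about 3 cycles earlier in ligated arteries than in control arteries. Its raw Ct in ligated replicates 1 to 6 was 21.64, 21.96, 20.96, 22.87, 23.09 and 22.31. In control replicates 1 to 6 it was 25.58, 25.34, 25.87, 25.42, 25.42 and 25.77. The groups did not overlap, since the latest ligated artery still came 2.25 cycles before the earliest control artery. Mean Ct was 22.1 ± 0.79 in ligated arteries and 25.6 ± 0.21 in control arteries (SD, n = 6 each), a difference of -3.43 cycles (exact two-sided permutation p = 0.00216, the smallest that the splits of 12 samples allow). The difference was -4.08 cycles within numbers 1 to 3 and -2.78 cycles within numbers 4 to 6, and permuting only within the sets gave an exact p of 0.005, the smallest of those 400 splits.

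The control arteries were unusually alike in raw Ct. Their 6 values spanned 0.53 cycles, and of the 283 miRNAs detected in all samples only 1 had a smaller SD among controls than miR-155, against a median SD of 0.87. In ligated arteries the raw SD of miR-155 was 0.79, with 114 assays below it and a median of 0.87. Over the same control arteries the mean Ct of the 283 miRNAs ran from 24.4 to 26.4, so the steady raw values of miR-155 did not follow the samples' overall signal. Once each sample was scaled to that mean, the control SD of miR-155 was 0.77, with 175 assays below it, and the ligated SD was 0.51, with 102 below it. Whether the steadiness of the raw control values has a technical or a tissue origin was not tested.

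Scaled levels are given as the mean Ct of the 283 always-detected miRNAs minus the Ct of miR-155, on a log2 scale on which 0 is that mean. miR-155 was at 1.69, 2.24, 3.08, 2.33, 1.94 and 2.70 in ligated replicates 1 to 6. It was at -0.60, -0.89, -0.83, 1.01, 0.24 and 0.39 in control replicates 1 to 6. All ligated arteries lay above all control arteries, with 0.68 between the lowest ligated and the highest control value. The mean level was 2.33 ± 0.51 in ligated arteries and -0.11 ± 0.77 in control arteries (SD, n = 6 each). The difference of 2.44 ± 0.38 (SE, 95% interval 1.62 to 3.26) is a fold of 5.44, with an interval from 3.08 to 9.60 (limma, adjusted p = 0.00494 over 339 assays). In whole-vessel RNA a larger number of cells that contain miR-155 and more miR-155 per cell cannot be told apart.

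Against this background, 25 of 339 assays (7.37%) were higher in ligated arteries and 17 were lower, with a median difference of -0.05 over all assays. A full separation of the groups with ligated higher was found for 16 of 339 assays (4.72%). miR-155 had the 12th largest difference and the second lowest p, after miR-142-5p. Of the assays with larger differences, 10 were called higher. Only 4 of the 24 assays with non-overlapping groups, in either direction, had a wider gap between them than miR-155. Its nearest neighbours above in size of difference were miR-34c at 2.82, miR-34c* at 2.64 and miR-34b-3p at 2.57, all members of the p53-responsive miR-34 family and all called (limma, adjusted p = 0.0160, 0.0238 and 0.0114). The neighbours below, miR-425 at 2.44, miR-501-5p at 2.35 and miR-409-5p at 2.35, had undetected wells among the control arteries and did not pass the test (limma, adjusted p = 0.442, 0.320 and 0.553).

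**Figure D1:**
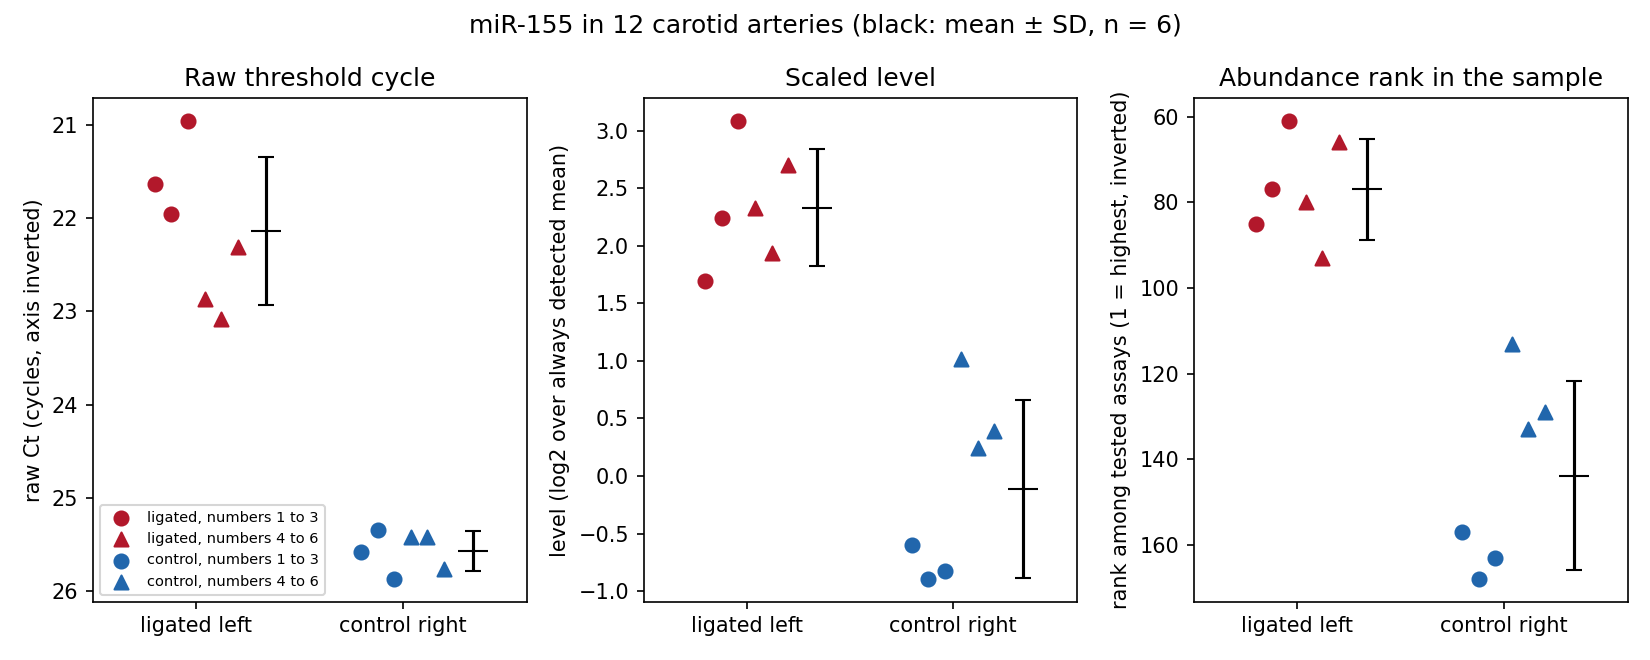
miR-155 in each artery as raw Ct in cycles (left, axis inverted so that more RNA is up), as scaled log2 level (middle) and as rank among 339 assays of the same sample (right, inverted). Points are samples, ligated left of control, with circles for numbers 1 to 3 and triangles for numbers 4 to 6, and black bars give mean ± SD (n = 6). No ligated point overlaps a control point in any panel, and the 6 control points lie within 0.53 cycles in raw Ct but fall into 2 groups by number set once scaled.

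Taking arteries of the same number together, the level was higher in the ligated artery in all 6 cases, by 2.29, 3.13, 3.91, 1.32, 1.69 and 2.31 for numbers 1 to 6. The labels do not state that a shared number marks 1 mouse. Differences were larger in numbers 1 to 3 than in numbers 4 to 6, with means of 3.11 and 1.78. Ligated arteries of the sets lay close together in level, at 2.34 ± 0.70 in numbers 1 to 3 and 2.32 ± 0.38 in numbers 4 to 6 (SD, n = 3 each). The control arteries of the sets did not overlap, at -0.77 ± 0.16 in numbers 1 to 3 and 0.55 ± 0.41 in numbers 4 to 6 (SD, n = 3 each). Tested against each other, the sets differed by -1.33 ± 0.52 (SE, 95% interval -2.50 to -0.17) in log2, numbers 4 to 6 minus 1 to 3, with an unadjusted p of 0.0291 and an adjusted p of 0.545 over 339 assays (limma interaction), so it did not pass. In that test 1 assay of 339 (0.295%), miR-433, was called, and 30 had an unadjusted p under 0.05. The order of the control sets depended on the scaling: in raw Ct they were 25.6 in numbers 1 to 3 and 25.5 in numbers 4 to 6, and over Y1, a small non-coding RNA used as control, miR-155 stood at -1.65 in numbers 1 to 3 and -2.40 in numbers 4 to 6, the reverse of the scaled levels. The closeness of the ligated sets depended on it too. Their means, numbers 1 to 3 first, were 21.5 and 22.8 in raw Ct, 2.37 and 0.29 over Y1, and -9.68 and -7.86 over the control RNA U6. Which group holds the difference between sets is therefore not settled.

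A position within the sample needs no scaling constant. Ordered by Ct among the 339 assays, miR-155 was the 85th, 77th, 61st, 80th, 93rd and 66th most abundant in ligated replicates 1 to 6. In control replicates 1 to 6 it was the 157th, 168th, 163rd, 113th, 133rd and 129th. The lowest-ranked ligated artery was 20 places above the highest-ranked control artery. As a percentile, miR-155 averaged 77.5 ± 3.5 in ligated arteries and 57.7 ± 6.5 in control arteries (SD, n = 6 each), a difference of 19.8 points (exact two-sided permutation p = 0.00216, the smallest these splits allow). Within the sets the difference was 26.1 points for numbers 1 to 3 and 13.4 points for numbers 4 to 6. Ranks by Ct also depend on how efficient each assay is, which is the same in every sample, so they place miR-155 only roughly among other miRNAs. In mean level over all samples it was the 109th of 339, between miR-186, miR-301a and miR-532-3p just above and miR-101a, miR-7a* and the muscle miRNA miR-1 just below.

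Small non-coding RNAs other than miRNAs can serve as the reference in place of the miRNAs, and the run held 6 of them. miR-155 was higher in ligated arteries with every one. The log2 difference was 2.58 over U87, 2.66 over snoRNA202, 1.91 over snoRNA135, 3.35 over Y1 and 2.50 over the mean of all 6, each past the threshold (limma, adjusted p between 0.000711 and 0.00874). Over U6 it was 2.13, over snoRNA429 2.35 and over their mean 2.24, and these did not pass (limma, adjusted p = 0.157, 0.182 and 0.165). U6 and snoRNA429 were the control RNAs with the widest spread between sets. Replicates 1 to 3 reached U6 at a mean Ct of 11.8 in the ligated and 13.5 in the control group, and replicates 4 to 6 at 14.9 in the ligated and 15.9 in the control group. For snoRNA429 the first set had means of 16.5 in ligated and 17.6 in control arteries, and the second 19.5 in ligated and 20.6 in control arteries.

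The authors' deposited processed table is scaled to U6 and snoRNA429, so there a lower value means more RNA. miR-155 ran from 5.01 to 7.70 cycles in ligated arteries and from 6.90 to 10.2 cycles in control arteries, and the groups overlapped by 0.80 cycles. Its difference on that scale was 2.24 in log2 with an adjusted p of 0.175 (limma) and an exact two-sided permutation p of 0.0303 for miR-155 alone. Permuted within the sets, the exact p was 0.005, the smallest possible, with deposited values 2.71 cycles lower in ligated arteries of numbers 1 to 3 and 1.76 cycles lower in those of numbers 4 to 6. A reference of this kind shifts the difference of every assay alike, relative to the miRNA mean by -0.54 with snoRNA135, -0.20 with U6 and snoRNA429, 0.91 with Y1 and 0.99 with raw Ct. It also moved the number of assays called in the whole table. The split was 25 higher and 17 lower with the miRNA mean, 7 and 3 with U6 and snoRNA429, 6 and 2 with snoRNA429 alone, 20 and 0 with Y1, 14 and 53 with snoRNA135, 25 and 8 with snoRNA202, and 57 and 0 with raw Ct.

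**Figure D2:**
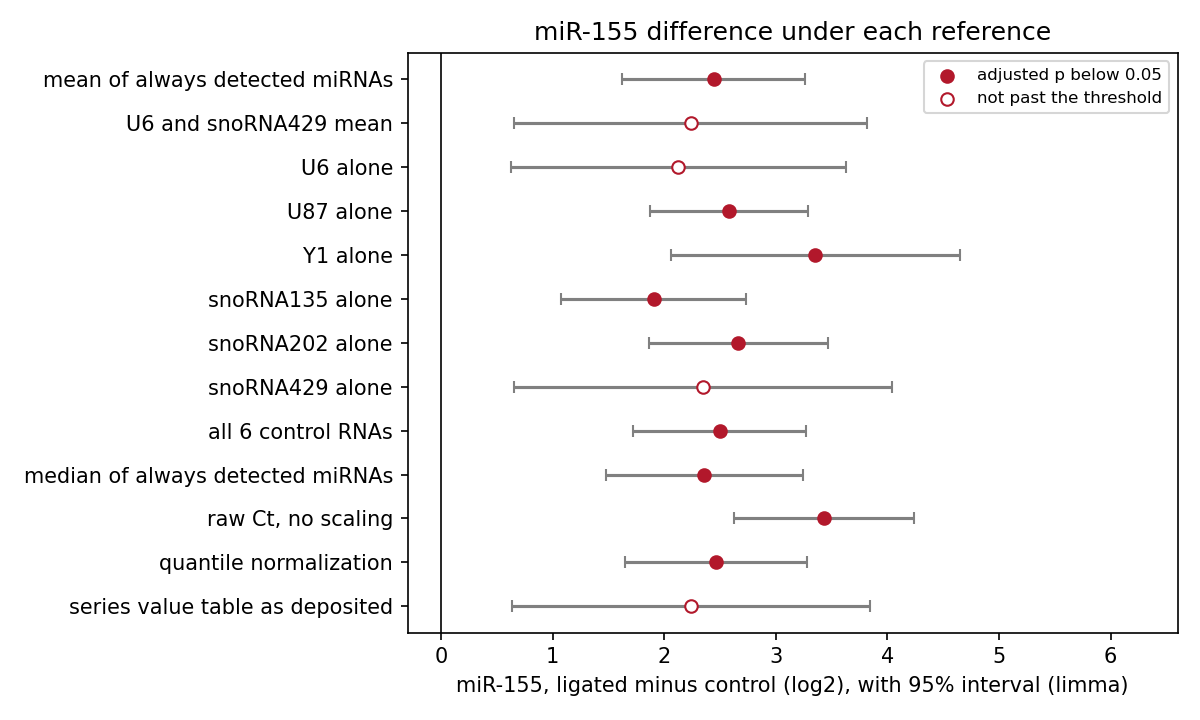
Log2 difference of miR-155, ligated minus control, with its 95% interval from limma (x axis), under 13 ways of setting the reference (y axis). Filled points had an adjusted p below 0.05 and open points did not. All 13 intervals lie above 0, with differences from 1.91 over snoRNA135 to 3.43 in raw Ct, and the 4 open points are those that rest on U6, snoRNA429 or both.

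A difference between 2 assays of the same sample holds no scaling constant at all, so the change of miR-155 was set against that of other miRNAs. Over the 282 other miRNAs detected in all samples the median gap was 2.53 log2 units. miR-155 changed more than 241 of them (85.5%) in the upward direction and less than none (exact two-sided permutation, adjusted over the 282). Among 22 miRNAs of leukocytes, innate activation, lymphocytes and the vessel wall, 15 were passed in this way, a smaller share than over all assays. Only 4 of the 282 had a larger mean change, miR-21, miR-34c, miR-34c* and miR-34b-3p, and none of these differed from miR-155 past the threshold (exact permutation, adjusted p between 0.501 and 0.892). For miR-21 the change of miR-155 was -0.41 apart (95% interval from the exact permutation test -1.75 to 0.93), at 0.57 in numbers 1 to 3 and -1.40 in numbers 4 to 6.

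The 6 leukocyte-enriched miRNAs had 4 members called higher in ligated arteries and none lower. Over all 339 assays 25 (7.37%) were called higher and 17 lower. The median log2 difference of the 6 was 1.84, against -0.05 over all 339 assays. With the replicate number as a block 5 of the 6 were called higher. How many of all assays were called with that block is not given here. The 4 were both arms of miR-142 and of miR-342, while miR-223, at 1.67, and miR-150, at 0.46, did not pass (limma, adjusted p = 0.0905 and 0.461), and with the replicate block miR-223 passed (limma, adjusted p = 0.00768). miR-142-5p was higher by 1.92 and miR-142-3p by 1.77 (limma, adjusted p = 0.00326 and 0.0425), and the call of miR-142-3p was lost in 17 of 36 alternative settings. miR-155 changed more than miR-142-3p by 0.67 (exact interval -0.42 to 1.81) and more than miR-142-5p by 0.52 (exact interval -0.33 to 1.37). Neither passed (exact permutation, adjusted p = 0.234 and 0.210), and both intervals include a change of miR-155 that is smaller as well as one more than 1 log2 unit larger. For miR-142-3p the sets were far apart, at 1.57 in numbers 1 to 3 and -0.23 in numbers 4 to 6. miR-342-3p was itself higher by 1.99 (limma, adjusted p = 0.0453), a call lost in 19 of 36 settings. Its gap to miR-155 was 0.46 (exact interval -1.33 to 2.23), and for miR-223 it was 0.77 (exact interval -1.01 to 2.56), again short of the threshold (exact permutation, adjusted p = 0.571 and 0.368). Permuted only within the sets, the gap to miR-223 passed (exact permutation, adjusted p = 0.0172), with 1.25 in numbers 1 to 3 and 0.29 in numbers 4 to 6. Passing in this way was common, at 257 of the 282 other assays.

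All 3 leukocyte markers, miR-142-3p, miR-142-5p and miR-223, were detected in every artery. Their mean level lay between 2.61 and 3.28 in ligated arteries and between 0.93 and 1.44 in control arteries, so this mean separated the groups as miR-155 did. Taken singly, only miR-142-5p did so, with a gap of 0.81 between the groups. For miR-142-3p and miR-223 the groups overlapped, with gaps of -0.21 and -0.85. The part of leukocyte content in the difference of miR-155 was not tested. In the lymphocyte list, which shares miR-150 with the leukocyte list, none of the 4 members passed in either direction, by limma with adjustment or at an unadjusted p under 0.05, and the median log2 difference was 0.32. miR-155 changed more than miR-150, abundant in mature lymphocytes, by 1.98 and more than miR-181a, known from lymphocyte development, by 2.18 (exact permutation, adjusted p = 0.00872 and 0.00351). Over miR-17 and miR-92a, of the growth-linked miR-17-92 cluster, the gaps were 2.06 and 2.81 (exact permutation, adjusted p = 0.00620 and 0.00351). Gaps of this size were common, since the median over the 282 other assays was 2.53 and 85.5% of them were passed.

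Of the 10 innate-activation miRNAs, which like miR-155 respond to Toll-like receptor or cytokine signals, 8 were tested. Of these, 3 were higher and 1 lower, against 25 and 17 of all 339 assays, and the median log2 difference was 1.00. With the replicate block 5 were higher and 1 lower, the added ones being miR-132 at 0.65 and miR-511 at 1.34 (limma, adjusted p = 0.0321 and 0.0288, against 0.210 and 0.230 without the block). The 25 and 17 belong to the fit without the block. The total over all assays with the block is not given here, so this gain has no background to be read against. miR-146a was higher by 1.65 and miR-21 by 2.86 (limma, adjusted p = 0.0200 and 0.0144), and miR-147, induced in stimulated macrophages, was detected in 6 ligated and 1 control artery. The relative of miR-146a, miR-146b, was measured in a separate run. Over the mean of the 4 control RNAs of that run, a reference other than the miRNA mean used for miR-155, it was higher by 2.82, with levels of -2.14 to -0.31 in ligated arteries and -4.04 to -3.50 in control arteries (exact permutation p = 0.00216, not adjusted). miR-155 changed more than miR-146a by 0.80 (exact interval -0.33 to 1.94), which passed only when permuted within the sets (exact permutation, adjusted p = 0.149 over all splits and 0.00638 within sets). The same held for miR-511, a macrophage miRNA from the gene of the mannose receptor, with a gap of 1.10 (exact permutation, adjusted p = 0.195 over all splits and 0.00638 within sets). Within sets, 257 of the 282 other assays passed. miR-132, another miRNA of stimulated leukocytes, changed less than miR-155 by 1.79, and miR-9 and miR-125b-5p by 2.51 and 2.66 (exact permutation, adjusted p between 0.00351 and 0.0165). For comparison, the median gap over all 282 other assays was 2.53. Without ligated 3 the gap to miR-132 was 1.57 and no longer passed (exact permutation, adjusted p = 0.0508 over the 22 listed). miR-187, described in human monocytes as induced by interleukin-10, was the member that was lower, by -2.50 (limma, adjusted p = 0.0458), and its gap to miR-155 was 4.94. Replicates 1 to 3 alone gave -1.16 for miR-187 and replicates 4 to 6 alone -3.84, and its call was lost in 19 of 36 settings.

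The widest gaps among the listed miRNAs, miR-187 aside, were to those of the muscle wall. miR-143 and miR-145, transcribed together and needed for the contractile state of smooth muscle, were lower in ligated arteries by -2.12 and -2.39 (limma, adjusted p = 0.00669 for each), and miR-1 by -1.75 (limma, adjusted p = 0.0238). No member of this list of 7 was higher, also at an unadjusted p under 0.05. Its lower members were 3, against 25 higher and 17 lower of all 339 assays. The median of the list was -1.28. With the replicate block 4 were lower, the added one being miR-133b at -1.28 (limma, adjusted p = 0.0321, against 0.268 without the block). Here too the total over all assays with the block is not given. The gap between miR-155 and miR-143 was 4.56, with 4.52 in numbers 1 to 3 and 4.59 in numbers 4 to 6, and the gap to miR-145 was 4.83, with 4.60 and 5.07 in the same order of sets. In single arteries miR-155 minus miR-145 ran from -7.57 to -5.98 log2 in the ligated group and from -12.6 to -10.6 in the control group, a separation of more than 3 log2 units. These gaps thus did not shrink in numbers 4 to 6, unlike the difference of miR-155 from the miRNA mean. There the partners themselves were further down. miR-143 was at -1.41 in numbers 1 to 3 and -2.82 in numbers 4 to 6, and miR-145 at -1.49 and -3.29. The difference between sets did not pass for either (limma interaction, adjusted p = 0.545 for each). Against the endothelial miR-126-3p the gap was 2.44, with a wide exact interval of 0.80 to 4.08 (exact permutation, adjusted p = 0.0187). This is near the median gap of 2.53 over all 282 other assays. Without ligated 4, 5 or 6 the gap to miR-126-3p was 2.21, 2.28 or 2.23 and no longer passed (exact permutation, adjusted p = 0.0508 over the 22 listed in each case).

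**Figure D3:**
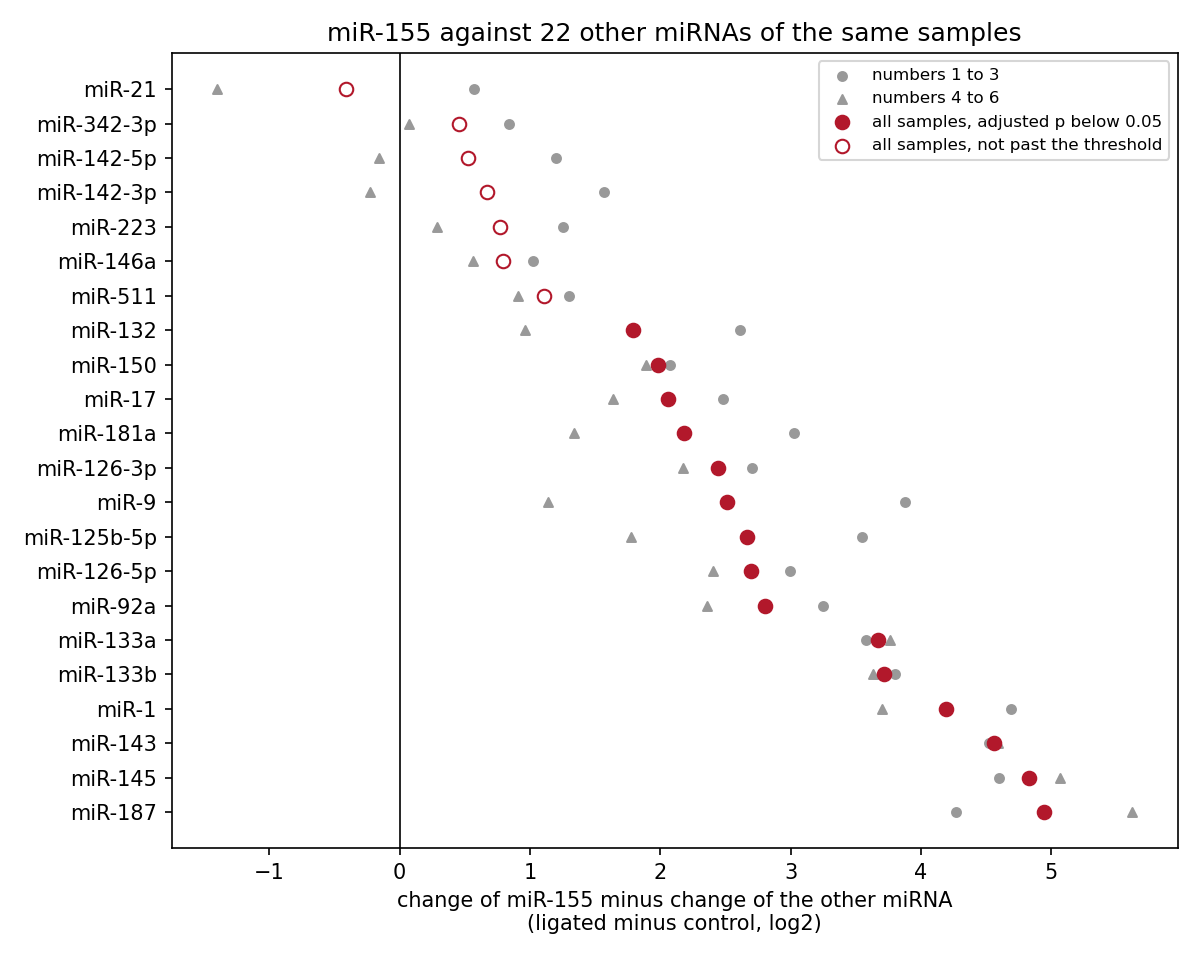
Change of miR-155 minus change of another miRNA, both ligated minus control in log2 (x axis), for 22 listed miRNAs detected in all samples (y axis). Large points use all samples and are filled where the exact permutation p, adjusted, was below 0.05, grey circles are numbers 1 to 3 and grey triangles numbers 4 to 6. The 7 open points at the top are miR-21 and 6 miRNAs of leukocytes or innate activation, and miR-143, miR-145 and miR-187 lie farthest right at 4.56, 4.83 and 4.94.

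The last question was which miRNAs vary with miR-155 among arteries of one kind. Since the sets differ, the mean of each group and set was removed, leaving 12 deviations. For miR-155 these were -0.65, -0.10, 0.75, 0.01, -0.39 and 0.38 in ligated replicates 1 to 6, and 0.18, -0.12, -0.05, 0.46, -0.31 and -0.16 in control replicates 1 to 6. The ligated arteries thus varied more around their set mean than the controls in numbers 1 to 3 (SD 0.70 against 0.16). In the other set they did not (SD 0.38 in ligated and 0.41 in control arteries, n = 3 each). Correlation with 282 other assays ran from r = -0.78 to 0.89, with a median of 0.08, and no assay passed (0 of 282, 0%), the lowest adjusted p being 0.363 for Pearson's r and 0.218 for Spearman's rho (exact permutation within group and set). The number of orders sets a floor: a single assay could reach no adjusted p below 0.218, and any call needed at least 5 assays at or near the smallest p. At an unadjusted p under 0.05 there were 25 assays by Pearson's r and 30 by Spearman's rho. All levels share the reference mean of their sample, which alone can tie assays to each other.

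The 5 highest correlations were with miR-24 (r = 0.89, rho = 0.89), miR-192 (r = 0.87, rho = 0.87), miR-191 (r = 0.85, rho = 0.69), miR-146a (r = 0.81, rho = 0.57) and miR-99b* (r = 0.81, rho = 0.73). Their unadjusted exact permutation p for r lay between 0.00154 and 0.0656. The samples farthest from the median deviation of miR-155 were ligated 1 and ligated 3. Without them r was 0.88 for miR-24 and 0.77 for miR-192, but 0.62 for miR-191, 0.42 for miR-146a and 0.53 for miR-99b*, so the last 3 rest in part on these arteries. miR-24 itself was close to equal in level between the groups, at 9.27 ± 0.53 in ligated arteries and 9.33 ± 0.16 in control arteries (SD, n = 6 each). The most opposed assays were miR-744* (r = -0.78), miR-676* (r = -0.77), miR-384-3p (r = -0.74), miR-128a (r = -0.69) and miR-101a* (r = -0.68). With ligated 1 and 3 left out, r stayed at -0.79 for miR-384-3p and was -0.62 for miR-744* and -0.41 for miR-676*, while miR-128a and miR-101a* were near 0 at -0.06 and -0.11.

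The leading assays changed when set means were kept. With group means alone removed, the 5 assays most like miR-155 shared 0 members with the 5 above, and the likeness values of the 282 assays under both treatments correlated across assays with r = 0.31. miR-192, miR-191 and miR-99b* then had r of -0.28, -0.20 and -0.22. Among the 6 control arteries alone, where numbers 1 to 3 and 4 to 6 lie apart, 88 assays had an unadjusted exact p under 0.05 and none passed after adjustment (exact permutation over 720 orders, lowest adjusted p = 0.139). Among the 6 ligated arteries alone 7 had an unadjusted exact p under 0.05 and none passed (lowest adjusted exact p = 0.944). Within 1 group any call needed at least 8 assays at or near the smallest p of the 720 orders, 0.00139 (exact permutation). For the 5 leukocyte miRNAs detected in all samples, r with group and set means removed was 0.73 for miR-223, 0.71 for miR-342-3p, 0.44 for miR-150, -0.04 for miR-142-3p and -0.11 for miR-142-5p. With ligated 1 and 3 left out these were 0.49, 0.27, -0.05, 0.16 and -0.14 in the same order. Differences between these r were not tested.

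**Figure D4:**
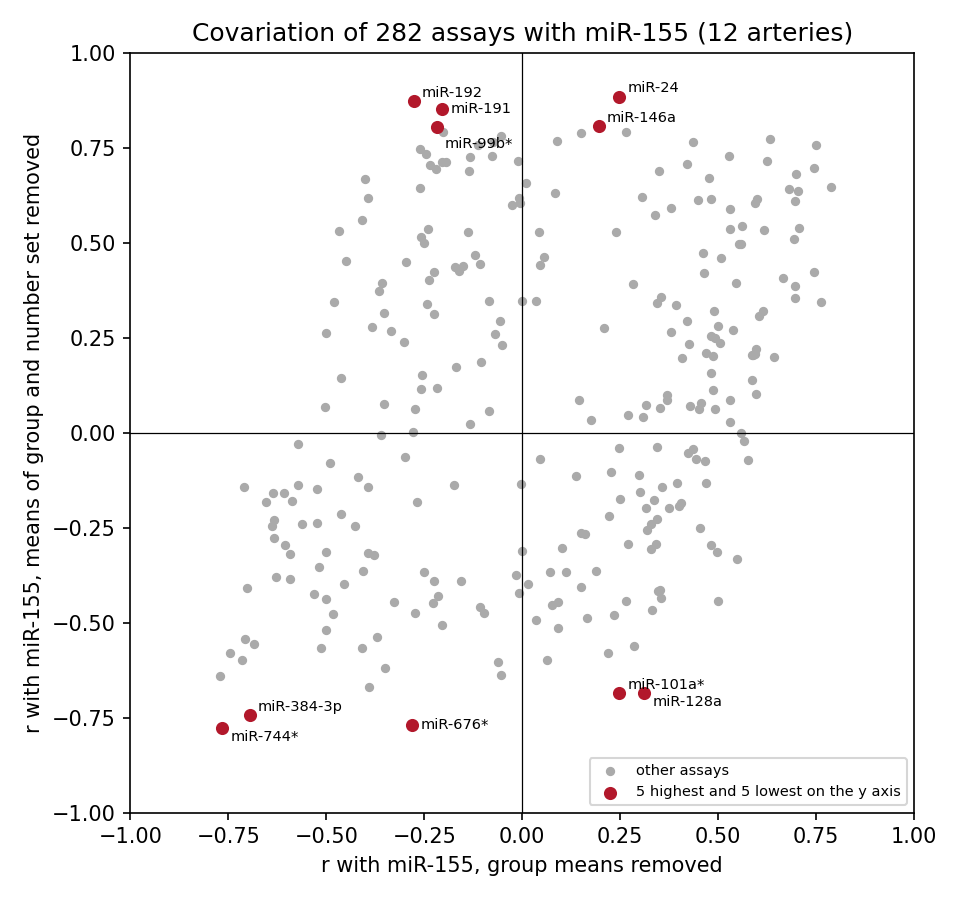
Pearson's r of 282 assays with miR-155 over 12 arteries, with group means removed (x axis) and with the means of group and number set removed (y axis). Each point is an assay, and red points are the 5 highest and 5 lowest on the y axis. miR-192, miR-191 and miR-99b* lie high on the y axis but below 0 on the x axis, and the cloud shows only a loose relation between the measures.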

How the data were processed

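Threshold cycles (Ct) were deposited by the authors as raw values, per the file headers. Total RNA came from the mirVana kit and was read on arrays of PCR assays, per the labels' protocols. The cycler and its thresholds were not given in the sources used here. Of the deposited tables, the main one lists 517 miRNA assays, 4 of them blank, and 11 rows of 6 control RNAs, whose repeats were averaged. A separate run holds the 4 blank assays. The authors' processed table equalled Ct less the U6 and snoRNA429 average within 5e-05 cycles over 513 assays, with column medians of 10.7 to 13.8.

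Wells at a Ct of 35 or more were set to 35. Samples were scaled to the mean Ct of 283 miRNAs detected in all 12 samples. Minus the scaled Ct of the 339 miRNAs detected in at least 4 of 6 samples of a group was fitted with limma 3.58.1 in R 4.3.3 (group as the only term, Benjamini-Hochberg, adjusted p below 0.05). The fit was tested on simulated data. Exact two-sided permutation over samples was used for single measures, and intervals for gaps between miRNAs hold the shifts that this test does not reject, and were added later. Gaps to the 22 listed miRNAs were planned with adjustment over the 22. Adjusted p-values over 282 assays were added later and are printed, unless stated. Both gave 15 calls. Folding used RNAfold 2.7.2. Sequences are RefSeq's, and all 7 assays looked up were matched.

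miR-155, the lists and the number sets were chosen with earlier results of these data known. The named miRNAs are the listed ones, the 5 highest and 5 lowest in likeness, and the 3 nearest above and below miR-155 in difference and in mean level. miR-433, named for its call between sets, was chosen after its values were seen. miR-212 was not analysed here. Same-numbered samples deviated together from their group means (r between 0.283 and 0.622). Once set means were removed r lay between -0.260 and 0.226, and the labels name no shared mouse. Whether a shared number marks a pair is therefore not settled, and fits with a replicate block are given only as alternatives. Alternatives covered the reference, detection limit, filter, blocks, sample weights and leaving out each sample.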

Additional observations from a re-analysis of the deposited data

Results flagged for a closer look

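One value among those named was flagged as standing apart from its group, undetected wells aside. The level of miR-744*, one of the assays most opposed to miR-155, was -3.66 in ligated 3, against -2.94 to -2.72 in the other ligated arteries, and the gap to its nearest neighbour took a share of 0.76 of the group's whole range, above the critical value of Dixon for 6 samples. The same artery had the highest level of miR-155. This was 1 of 140 such tests, and chance alone gives about 1 in 20. None of the values of miR-155 itself stood apart in this way. Some undetected wells, set to the detection limit, also lay far from their group. miR-425 was at -8.57 in 1 control artery, against 1.21 to 2.32 in the others. miR-409-5p was at -10.8 in 1 ligated artery, against -4.04 to -1.08 in the others.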

How the results depend on the processing

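miR-155 was higher in ligated arteries under every alternative run, with log2 differences from 1.78 in numbers 4 to 6 alone to 3.43 in raw Ct. It passed the threshold except with U6 and snoRNA429 (2.24, adjusted p 0.165), U6 alone (2.13, adjusted p 0.157), snoRNA429 alone (2.35, adjusted p 0.182) and the deposited table (2.24, adjusted p 0.175), all by limma. The cause was not tested. With the sets as a block, added after seeing the data, the U6 and snoRNA429 fit passed (limma, adjusted p = 0.000432). With a replicate block the difference of 2.44 kept its call (limma, adjusted p = 0.00768), and over U6 and snoRNA429 the replicate block gave an adjusted p of 0.00741. Sample weights gave 2.04. Leaving out 1 sample at a time gave 2.29 to 2.66 (limma, highest adjusted p 0.0130), 18.3 to 21.6 percentile points, -3.62 to -3.19 cycles, -1.66 to -0.96 for the difference between sets, and 14 to 15 of the 22 gaps. Permuted within sets, or with same-numbered samples as pairs, 18 of the 22 gaps passed. Over all 282 other assays, 257 gaps passed when permuted within sets, so the listed ones did not stand out.

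Of the likeness values, 13 changed sign and 186 kept it. With group means alone removed, r turned to -0.28 for miR-192, -0.20 for miR-191, -0.22 for miR-99b*, 0.25 for miR-101a* and 0.31 for miR-128a. In control arteries alone it turned to -0.43 for miR-24, -0.86 for miR-192, -0.92 for miR-191, -0.85 for miR-146a, -0.86 for miR-99b*, 0.83 for miR-101a*, 0.91 for miR-128a and 0.42 for miR-676*. No assay passed for likeness in any setting tested, but the few orders available made a call nearly impossible, so this says nothing about stability. Calls over all assays moved from 25 higher and 17 lower to 6 and 4 with U6, 8 and 4 with the deposited table, 37 and 30 with the set block, 51 and 50 with sample weights, 5 and 0 in numbers 1 to 3, 50 and 51 in numbers 4 to 6, 18 and 11 with ligated 5 and 6 averaged, and as low as 15 higher (without control 6) and 9 lower (without control 4). For the 22 other named miRNAs whose difference was recalculated, calls were lost in 126 recalculations, gained in 19 and unchanged in 642, with no sign changed. Among named ones not recalculated, none of them called, signs differed between numbers 1 to 3 and 4 to 6 for several, such as miR-9 (-0.77 and 0.63), miR-126-3p (0.40 and -0.40), miR-150 (1.04 and -0.11) and miR-24 (0.18 and -0.30). Precision is limited by 6 arteries per group, and values near a Ct of 35 have no order.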
